A study of Mus musculus with 6 samples.

Results

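The 10 genes described here are the 5 NF-kB subunit genes Nfkb1, Nfkb2, Rel, Rela and Relb, the 3 IkB genes Nfkbia, Nfkbib and Nfkbie, and the feedback genes Tnfaip3 and Birc3. They were taken by gene symbol, and all 10 are among the 24063 symbols of the count table. RNA was measured by sequencing in 3 libraries labelled Arid2 knockout and 3 control libraries of mouse LSK cells, which are sorted from bone marrow as negative for lineage markers and positive for Kit and Sca1 and include the blood stem cells. The libraries labelled knockout came from Arid2fl/fl:MxCre+ mice, in which Cre removes a floxed part of Arid2, a subunit of the PBAF chromatin remodelling complex. The control mice were MxCre+ without the floxed alleles. Both groups had the C57/BL6 background, received pIpC, a double-stranded RNA analogue, at an age of 6 to 8 weeks, and gave their marrow 6 weeks after it. The Mx promoter responds to interferon and is not restricted to blood cells, so excision need not have been limited to the sorted fraction. Nothing in the labels ties libraries to animals or litters, so a p-value here measures only how these libraries vary. That variation may be technical, except that the controls came from more than a single animal, since their reads gave both sexes (below).

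NF-kB proteins bind DNA as dimers. Nfkb1 and Nfkb2 encode the precursors p105 and p100, which are processed to p50 and p52, and Rel, Rela and Relb encode the subunits with a transactivation domain. IkB proteins hold the dimers in the cytoplasm until the IKK kinases mark them for degradation. The canonical route mainly frees dimers of p50 with RelA or c-Rel, and the non-canonical route, driven by the kinase NIK, processes p100 and frees p52 with RelB. Several of these genes are themselves transcribed in response to NF-kB, and in haematopoietic progenitors the system is known for its response to TNF, interleukin-1 and Toll-like receptor ligands.

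Library totals ran from 12408966 to 24989866 reads in the libraries labelled knockout and from 13950708 to 28185678 in controls. Arid2 itself, counted over the whole gene, had 150.2 to 162.5 CPM (reads per 1000000 counted reads, after TMM scaling) in the libraries labelled knockout and 148.4 to 165.1 CPM in controls (log2 fold change 0.00, SE 0.06, edgeR adjusted p = 0.991), so gene-level counts do not show the labelled difference and every direction below rests on the labels. By Xist and Y-linked reads, all 3 libraries labelled knockout and control replicate 2 came from females and control replicates 1 and 3 from males. Of the gate genes, Kit was at 426.3 to 446 CPM in the libraries labelled knockout and 493.3 to 655.3 CPM in controls, whereas Ly6a, which encodes Sca1, was at 12.4 to 15.3 and 18.2 to 22.3 CPM, low for a gene used to sort the cells.

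To show the DNA that the NF-kB proteins could meet at their own genes, the 250 bases before annotated start sites were searched for the kappaB consensus, the 10-base site that NF-kB dimers bind, on both strands and with overlapping matches allowed. RefSeq promoter sequences (GRCm38.p6, the mm10 assembly) were found for 8 of the 10 genes, with Nfkb1 and Relb not matched. A match was present in 5 of these 8 genes, namely Nfkb2, Rel, Nfkbia, Nfkbie and Tnfaip3, and in 7 of their 11 start-site windows (63.6%). Of the 32851 windows of the same length over all genes, 2382 (7.25%) held a match. The 11 windows were also richer in G and C, with a median of 59.2% against 52.4% over all windows, and the part this has in their matches was not tested. The sequences below are printed 5′ to 3′ on the gene's strand up to the base before the first listed start, with matches in capitals. Nfkb2, Tnfaip3 and Nfkbia are shown for genes that hold matches, and Rel for one that holds a match and had a fold change near 0. Birc3 is shown for a gene that passed the test and holds no match in this window. All 10 genes had positive fold changes, and none of the 5 with a match passed the test (below). Relb passed it but had no sequence here. A link between matches and fold changes was not tested. A match is a run of letters and not a measured site.
Nfkb2 (chr19:46304487-46304736, plus strand): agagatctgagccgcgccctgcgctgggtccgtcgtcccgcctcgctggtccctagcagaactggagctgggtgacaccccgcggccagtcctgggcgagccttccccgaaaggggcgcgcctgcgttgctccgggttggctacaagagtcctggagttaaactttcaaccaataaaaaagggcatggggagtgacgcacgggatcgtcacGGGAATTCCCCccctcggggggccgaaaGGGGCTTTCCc
Tnfaip3 (chr10:19015411-19015660, minus strand): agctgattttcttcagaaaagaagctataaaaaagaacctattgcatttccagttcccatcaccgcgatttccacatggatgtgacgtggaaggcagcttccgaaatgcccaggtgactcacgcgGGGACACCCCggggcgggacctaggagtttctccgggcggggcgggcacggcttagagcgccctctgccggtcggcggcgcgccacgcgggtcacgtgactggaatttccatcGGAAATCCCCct
Nfkbia (chr12:55492648-55492897, minus strand): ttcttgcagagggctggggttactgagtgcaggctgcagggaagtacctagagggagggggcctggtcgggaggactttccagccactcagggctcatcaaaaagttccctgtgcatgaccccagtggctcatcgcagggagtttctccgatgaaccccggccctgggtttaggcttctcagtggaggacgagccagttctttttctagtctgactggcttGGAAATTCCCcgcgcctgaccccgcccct
Rel (chr11:23770970-23771219, minus strand): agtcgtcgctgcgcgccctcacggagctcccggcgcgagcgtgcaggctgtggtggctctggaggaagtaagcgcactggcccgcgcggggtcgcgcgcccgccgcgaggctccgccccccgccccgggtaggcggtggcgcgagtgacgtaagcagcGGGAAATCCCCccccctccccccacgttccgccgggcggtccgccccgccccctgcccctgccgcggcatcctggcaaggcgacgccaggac
Birc3 (chr9:7873171-7873420, minus strand): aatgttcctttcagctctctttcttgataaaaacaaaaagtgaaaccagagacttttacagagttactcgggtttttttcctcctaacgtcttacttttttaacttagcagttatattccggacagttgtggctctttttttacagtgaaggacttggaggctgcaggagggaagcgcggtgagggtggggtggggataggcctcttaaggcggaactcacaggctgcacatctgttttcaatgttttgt
In the Nfkb2 window, matches begin 39, 38 and 11 bases before the RefSeq start. In Rel they begin 92 and 91 bases before it, in Tnfaip3 125 and 12 bases, and in Nfkbia 29 bases. The RefSeq starts are not always those of the GENCODE positions used elsewhere here. The Nfkb2 window lies inside the GENCODE gene, which starts at 46304320. The Tnfaip3 window lies almost wholly inside its GENCODE gene, which starts at 19015657 on the minus strand. These 2 windows are thus not upstream of the genes as GENCODE places them.

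Across the 10 genes, Relb and Birc3 were higher in the libraries labelled knockout, none was lower, and 8 did not pass the test (edgeR quasi-likelihood test with group as the only term, Benjamini-Hochberg adjusted p under 0.05). Of all 13679 genes tested, 3.85% were called higher and 4.58% lower. All 10 passed the filter on low counts. All 10 had positive log2 fold changes, with a median of 0.22 and a range from 0.03 to 0.63, whereas 49.6% of all genes tested were positive and their median was 0.00. In 7 of the 10, all 3 libraries labelled knockout lay above all 3 controls, which held for 15.1% of all genes tested. These are the same 7 that had an unadjusted p under 0.05, against 12.2% of all genes tested that were higher at that level. The 5 inhibitors and feedback genes were all among the 7, and of the 5 subunits Nfkb2 and Relb were. The counts over members describe them and are no test of the group, since its genes were chosen together with results of these data known.

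**Figure D1:**
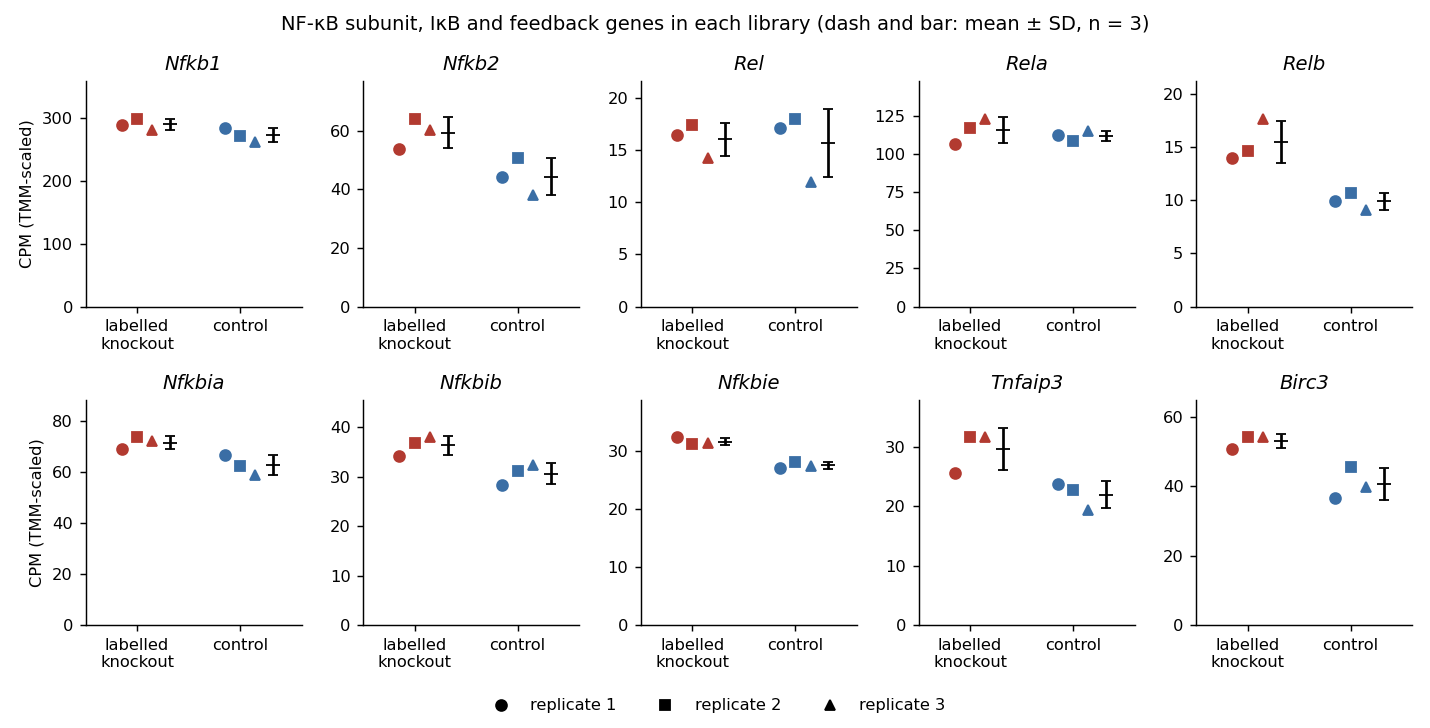
TMM-scaled CPM of each member (vertical axes, each starting at 0) in the 3 libraries labelled knockout (red) and the 3 control libraries (blue), with symbols for replicate numbers and a dash with bar for the mean ± SD. The groups stand apart in 7 panels, Relb and Birc3 among them, and overlap for Nfkb1, Rel and Rela.

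Relb, the partner of p52 in the non-canonical dimer, had the largest fold change of the 10. Its level was 14, 14.6 and 17.7 CPM in libraries labelled knockout 1 to 3, against 9.9, 10.7 and 9.09 CPM in controls 1 to 3. The groups did not overlap, and the lowest library labelled knockout lay 3.26 CPM above the highest control. The log2 fold change was 0.63 with an SE of 0.14, a ratio of 1.55 with a 95% confidence interval from 1.24 to 1.93 (edgeR adjusted p = 0.0324, n = 3 each). Relb lies on chromosome 7 at 19606217 to 19629438, minus strand (GENCODE M21, mm10), and overlaps no other annotated gene. Its call did not hold when any single library other than control replicate 2 was left out, with log2 fold changes of 0.53 to 0.70 in the 6 fits and edgeR adjusted p of 0.0579, 0.0941 and 0.0927 without knockout replicates 1, 2 and 3 and 0.0943 and 0.0701 without control replicates 1 and 3. With a sex term, which sets the libraries labelled knockout against the sole female control, it had 0.52 with an SE of 0.20 (edgeR adjusted p = 0.383).

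Nfkb2, which encodes the p100 precursor of p52, had 53.9, 64.2 and 60.1 CPM in libraries labelled knockout 1 to 3 and 44.3, 50.9 and 38 CPM in controls 1 to 3. The groups were apart, but the lowest library labelled knockout and the highest control, which is the female one, differed by only 2.97 CPM. The log2 fold change was 0.42 with an SE of 0.11 and missed the threshold (edgeR adjusted p = 0.0595, n = 3 each), while DESeq2 called it (adjusted p = 0.0164). With the sex term it had 0.22, SE 0.14 (edgeR adjusted p = 0.579). Nfkb2 (chromosome 19, 46304320 to 46312385, plus strand) overlaps Psd on the opposite strand. Psd had 8.46 to 13.2 CPM in the libraries labelled knockout and 6.39 to 8.28 CPM in controls, and its part in the Nfkb2 counts was not tested, the strand setting of the counting being unknown here.

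The subunit genes of the canonical dimers did not pass the test. Nfkb1, the source of p50, had 289.9, 299.4 and 281 CPM in libraries labelled knockout 1 to 3 against 284.2, 272.3 and 261.7 CPM in controls 1 to 3, and Rela, which encodes p65, had 106.3, 117.1 and 123 CPM against 112.4, 108.4 and 114.7 CPM. Both groups overlapped for both genes. The ratio had a 95% confidence interval from 0.966 to 1.17 for Nfkb1 and from 0.925 to 1.15 for Rela (edgeR adjusted p = 0.411 and 0.733, n = 3 each), and neither interval reaches the 1.55-fold difference measured for Relb. Rel, which encodes c-Rel, had 16.4, 17.4 and 14.3 CPM in libraries labelled knockout 1 to 3 against 17.1, 18 and 12 CPM in controls 1 to 3. Its interval of 0.784 to 1.33 was wider, and its sign turned with the sex term (log2 fold change −0.16, edgeR adjusted p = 0.831) and without control replicate 3 (−0.13).

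The fold changes of the IkB genes lay close together, below those of Relb, Nfkb2, Tnfaip3 and Birc3 and above those of Nfkb1, Rela and Rel. Nfkbia encodes IkBalpha, the inhibitor that NF-kB itself induces and that ends a response, and it had 69, 73.8 and 72.1 CPM in libraries labelled knockout 1 to 3 against 66.9, 62.7 and 59 CPM in controls 1 to 3. Nfkbib (IkBbeta) had 34.3, 36.9 and 38 CPM against 28.3, 31.1 and 32.4 CPM, in the same order of libraries. Nfkbie (IkBepsilon) had 32.4, 31.2 and 31.3 CPM against 27, 28.1 and 27.4 CPM. For each of the 3 the groups did not overlap, yet none passed the test. Their log2 fold changes were 0.19, 0.25 and 0.20 with SEs of 0.07, 0.09 and 0.08 (edgeR adjusted p = 0.126, 0.121 and 0.15, n = 3 each), and with the sex term 0.19, 0.23 and 0.17. Nfkbib overlaps the Sirt2 gene on the opposite strand, which was higher itself (77.4 to 80.7 CPM in the libraries labelled knockout against 57.7 to 67.6 CPM in controls, log2 fold change 0.32, edgeR adjusted p = 0.0338), so the Nfkbib value may include reads of Sirt2 and this was not tested.

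Of the feedback genes, Birc3 passed the test. It encodes cIAP2, a ubiquitin ligase that supports canonical signalling from TNF receptors and, in complex with TRAF proteins, keeps NIK low. Its level was 50.6, 54.1 and 54.2 CPM in libraries labelled knockout 1 to 3, against 36.6, 45.6 and 39.7 CPM in controls 1 to 3. The groups did not overlap, and the female control was the highest of the controls. The log2 fold change was 0.38 with an SE of 0.09, a ratio of 1.30 with a 95% confidence interval from 1.13 to 1.51 (edgeR adjusted p = 0.0415, n = 3 each). As with Relb, the call did not hold without any one library other than control replicate 2 (log2 fold change 0.31 to 0.48 in the 6 fits, edgeR adjusted p of 0.0876, 0.14 and 0.107 without knockout replicates 1, 2 and 3, and 0.115 and 0.0802 without control replicates 1 and 3). It was not called with library totals in place of TMM (0.36, edgeR adjusted p = 0.0587), and the sex term brought it to 0.22 with an SE of 0.11 (edgeR adjusted p = 0.477).

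Birc2, which encodes the related cIAP1, lies 11634 bases from Birc3 on chromosome 9 with no protein-coding gene between them. Birc2 had 51, 55.5 and 56.8 CPM in libraries labelled knockout 1 to 3 against 56.7, 47.4 and 57.2 CPM in controls 1 to 3 (log2 fold change 0.02, edgeR adjusted p = 0.919). Reads of Birc3 for each read of Birc2 came to 0.993, 0.976 and 0.953 in libraries labelled knockout 1 to 3, against 0.645, 0.960 and 0.694 in controls 1 to 3. In this ratio the female control stood with the libraries labelled knockout and the male controls stood apart. That control also had the lowest Birc2 of all libraries, and its Birc3 (45.6 CPM) lay below every library labelled knockout. Tnfaip3, which encodes the ubiquitin-editing enzyme A20 that shuts off TNF and Toll-like receptor signalling, had 25.6, 31.7 and 31.7 CPM in libraries labelled knockout 1 to 3 against 23.7, 22.8 and 19.4 CPM in controls 1 to 3. The groups were apart by 1.85 CPM. The log2 fold change was 0.43 with an SE of 0.12 and missed the threshold (edgeR adjusted p = 0.0662, n = 3 each), DESeq2 called it (adjusted p = 0.0258), and with the sex term it was 0.38, SE 0.18 (edgeR adjusted p = 0.467).

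**Figure D2:**
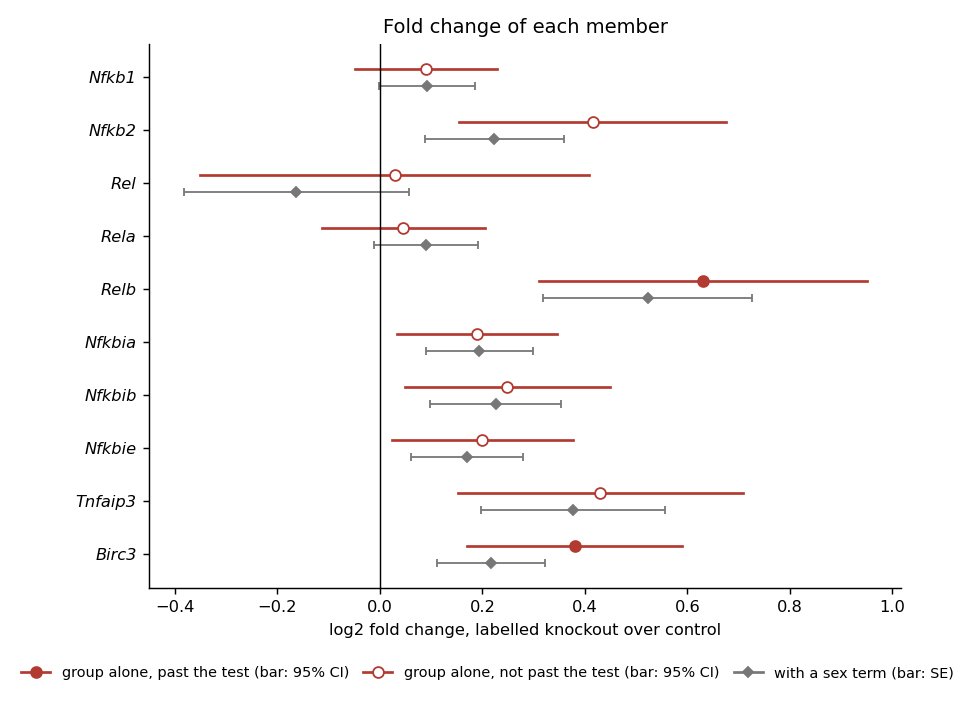
Log2 fold change of each member, labelled knockout over control, by group alone (red, bar for the 95% confidence interval, filled where the adjusted p is under 0.05) and with a sex term (grey diamonds, bar for the SE). Relb at 0.63 and Birc3 at 0.38 are the filled points; the diamonds of Birc3 and Nfkb2 lie at 0.22, and that of Rel lies below 0.

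Where the female control sat between the male controls and the libraries labelled knockout differed from gene to gene. For Nfkb2 and Birc3 it lay 58.7% and 54.3% of the way on the log2 scale, and for Relb, Nfkbie, Tnfaip3 and Nfkbib 25%, 21.2%, 19.5% and 13.8%. For Nfkbia it lay at the level of the male controls (62.7 CPM, against a mean of 62.9 CPM). It is 1 library, so sex, this library and the label cannot be told apart in these values. In the edgeR fit with the sex term none of the 10 was called, and Relb alone had an unadjusted p under 0.05 (0.0357). Of all genes tested, 0.0512% were called higher and 0.263% lower in that fit.

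Levels can be compared between genes only per length, so CPM was divided by the length of annotated exon sequence. On this scale Nfkbia stood highest, at 44.5 ± 1.5 CPM per kb in the libraries labelled knockout and 39 ± 2.5 in controls (SD, n = 3 each), followed by Rela at 37.6 ± 2.8 and 36.4 ± 1 and Nfkb1 at 24.1 ± 0.76 and 22.6 ± 0.93. Nfkbib (16.8 and 14.1 CPM per kb), Nfkb2 (13 and 9.68), Birc3 (10.6 and 8.11) and Nfkbie (10.4 and 9.04) formed the middle. Tnfaip3 (4.1 and 3.04), Relb (3.97 and 2.55) and Rel (2.15 and 2.1) were lowest, so the gene with the largest fold change was among the least expressed. In the libraries labelled knockout, neighbours in this order overlapped in range only for Birc3 with Nfkbie and Tnfaip3 with Relb. In controls they overlapped for Nfkbia with Rela, for Nfkb2, Nfkbie and Birc3 in turn, and for Tnfaip3, Relb and Rel in turn. The exon length covers all annotated transcripts of a gene and understates the level of genes that use a short one.

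**Figure D3:**
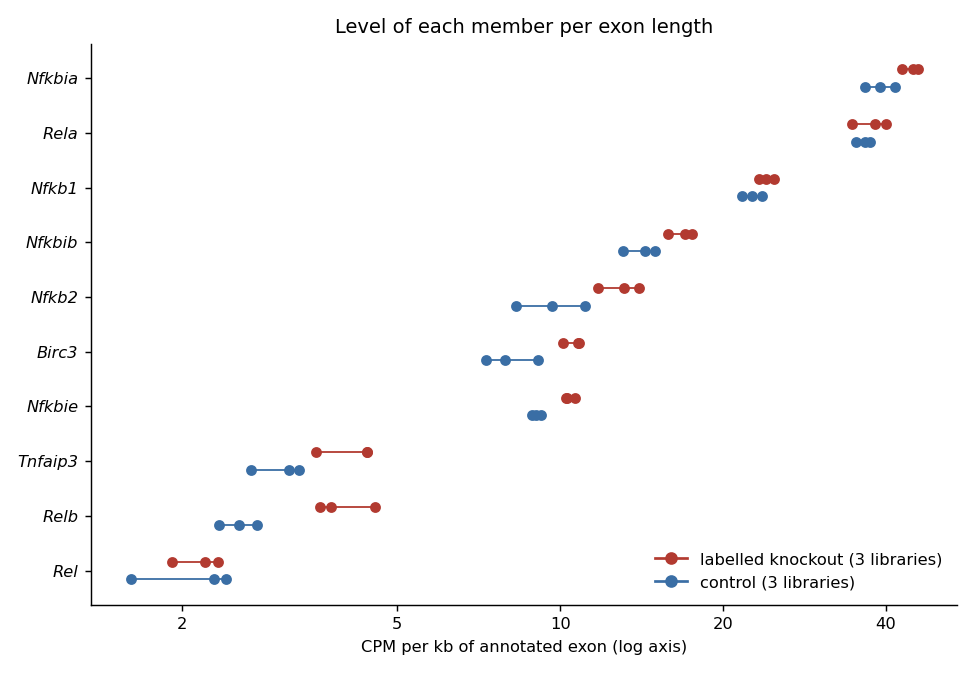
Level of each member in CPM per kb of annotated exon (horizontal log axis) in each of the 3 libraries labelled knockout (red) and 3 control libraries (blue), with a line over the range. Genes run from Nfkbia, at 44.5 and 39 CPM per kb on average, down to Rel at 2.15 and 2.1.

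The make-up of the subunit RNA followed from these levels. Relb made up 4.71%, 4.54% and 5.48% of the summed per-kb level of the 5 subunits in libraries labelled knockout 1 to 3, against 3.41%, 3.71% and 3.28% in controls 1 to 3. Nfkb2 made up 15.4%, 16.9% and 15.8% in the libraries labelled knockout against 12.9%, 15% and 11.6% in controls. The ratio of Nfkb2 to Nfkb1 per kb was 0.489, 0.564 and 0.563 in libraries labelled knockout 1 to 3, against 0.41, 0.492 and 0.382 in controls 1 to 3, and the female control exceeded the lowest library labelled knockout. Rela made up 45.4% to 48.3% in the libraries labelled knockout and 47.6% to 52.4% in controls, with overlap. Among the 3 IkB genes the proportions overlapped between the groups, Nfkbia holding 61.7% to 62.7% in the libraries labelled knockout and 60.4% to 65.4% in controls. The summed IkB level for each unit of subunit level was 0.91, 0.88 and 0.876 in libraries labelled knockout 1 to 3 and 0.851, 0.843 and 0.85 in controls 1 to 3. These ratios describe the libraries and were not tested.

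The LSK fraction is a mixture, and in bulk RNA more cells of a type and more RNA per cell cannot be told apart. Summed markers of neutrophils (12 genes, 5 of them higher by the same test, none lower) came to 7190 to 9211 CPM in the libraries labelled knockout and 2979 to 5755 CPM in controls. Most of the sum was S100a8, S100a9, Ngp, Camp and Ltf, whereas Mmp8, Mmp9, Retnlg and Cxcr2 of the same list overlapped between the groups at 2.31 to 17.3 CPM. Those of monocytes and macrophages (11 of 12 genes in the table, with Vcam1 also among the target genes below, 6 higher and none lower) came to 2394 to 3096 CPM in the libraries labelled knockout and 1474 to 1718 CPM in controls. Stem and progenitor genes, Kit and Ly6a included (8 genes, 5 lower), came to 1384 to 1529 CPM and 1758 to 2176 CPM in the same order of groups. Kit was not among those called (edgeR adjusted p = 0.0814). Mecom lay above all controls, at 24.6 to 30.3 against 21.6 to 23.4 CPM, without passing the test (edgeR adjusted p = 0.218). Hlf overlapped between the groups, at 194 to 197 and 165.2 to 223.7 CPM. B and plasma cell genes summed to 24.8 to 28.5 CPM in the libraries labelled knockout and 34.7 to 39 CPM in controls (8 of 10 in the table, 1 lower). Cd79b carried the lower sum, at 11.4 to 14.4 CPM in the libraries labelled knockout and 27.3 to 29.6 CPM in controls. Cd79a overlapped between the groups. Pax5 and Ms4a1 were under 1 CPM in every library, and both lay above all controls in the libraries labelled knockout. T and NK cell genes summed to 245.1 to 316 CPM and 201 to 273.4 CPM (9 of 10 in the table, 1 higher and 1 lower), most of it Nkg7, with Ncr1 under 1 CPM in every library. No listed marker was at 0 in all libraries. Both myeloid sums lay higher in all libraries labelled knockout than in all controls, as did 7 of the 10 members. Among the libraries labelled knockout, replicate 1 had the highest neutrophil sum and the lowest sum for monocytes and macrophages. The same library had the lowest Rela, Relb, Nfkb2, Nfkbia, Nfkbib, Tnfaip3 and Birc3 of its group and the highest Nfkbie. For Nfkb1 and Rel it lay between the other libraries labelled knockout. The part of these cells in the members' values was not tested.

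Upstream of the members, 29 genes for receptors and signalling to the IKK kinases were tested, of which 4 were higher, 1 was lower and 24 did not pass (median log2 fold change 0.12). The shares over all genes tested, 3.85% higher and 4.58% lower, are the background for this list and those that follow. Those higher were the receptor genes Cd40 (log2 fold change 1.37) and Tnfrsf1b (0.40, and 0.26 with the sex term), which encodes the second TNF receptor, the adaptor gene Myd88 (0.34) of Toll-like and interleukin-1 receptors, and Ripk1 (0.23), a kinase of the TNF receptor complex. Cd40, a co-stimulatory receptor that feeds both routes, had 6.24, 7.3 and 7.7 CPM in libraries labelled knockout 1 to 3 against 1.6, 3.13 and 3.44 CPM in controls 1 to 3. The groups were apart, at a low level in every library (SE 0.28, edgeR adjusted p = 0.0248, n = 3 each). The gene that was lower, Tnfrsf13c, encodes the BAFF receptor of B cells and had 3.77 to 4.44 CPM in the libraries labelled knockout against 6.36 to 8.68 CPM in controls (log2 fold change −0.87, edgeR adjusted p = 0.0307). The 3 others with the smallest p were Traf3 (0.17), which holds NIK low, Tnfrsf11a (0.87), the receptor RANK, and Il1r1 (−0.48, and −0.04 with the sex term), with edgeR adjusted p of 0.121, 0.0908 and 0.132.

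The IKK subunit genes Chuk, Ikbkb and Ikbkg had log2 fold changes of 0.18, 0.06 and 0.02, and Map3k14, which encodes NIK, had −0.02, none past the test, with edgeR adjusted p of 0.183, 0.538, 0.92 and 0.914. These 4 were named after their values were seen. Of 18 other IkB proteins and negative regulators, 1 was higher, none was lower and 17 did not pass in edgeR (median log2 fold change 0.09). At an unadjusted p under 0.05 in that fit, 3 were higher and 1 lower. Of all 13679 genes tested, 3403 had such a p and 1673 of these (12.2% of all tested) were higher. The one called, Tnip3, encodes an A20-binding protein and had 16.7, 19.1 and 22.9 CPM in libraries labelled knockout 1 to 3 against 9.22, 10.5 and 12.1 CPM in controls 1 to 3. Its groups were well apart, and its log2 fold change of 0.88 (SE 0.16, edgeR adjusted p = 0.0156, n = 3 each) was 0.89 with the sex term (edgeR adjusted p = 0.209). Nkiras2, which encodes a small GTPase that slows the degradation of IkB proteins, Bcl3 and Nfkbil1 had 0.30, 0.39 and −0.28 (0.19 for Nkiras2 and −0.13 for Nfkbil1 with the sex term), none past the threshold (edgeR adjusted p = 0.0594, 0.113 and 0.164). Bcl3, a nuclear IkB protein that partners p50 and p52, lies on chromosome 7, 179023 bases from Relb with 10 protein-coding genes between them.

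Target genes moved in both directions. Of 26 listed, 23 were tested, of which 6 were higher, 1 was lower and 16 did not pass (median log2 fold change 0.13). Cxcl10, a chemokine gene that interferon also induces, had 9.09, 7.9 and 12 CPM in libraries labelled knockout 1 to 3 against 1.78, 3.66 and 2.55 CPM in controls 1 to 3 (edgeR adjusted p = 0.00976, n = 3 each), which is 1.82 on the log2 fold scale with an SE of 0.28. Cd83, a surface marker of activated dendritic and B cells, had 11.4, 18.3 and 26.7 CPM against 4.24, 6.4 and 7.65 CPM in the same order, with a log2 fold change of 1.62 and an SE of 0.32 (edgeR adjusted p = 0.0223, n = 3 each). The chemokine gene Ccl5 (0.92), the stress response gene Gadd45b (0.63), Tapbp (0.29), which encodes the MHC class I loading factor tapasin, and Cflar (0.24), which encodes the caspase-8 inhibitor c-FLIP, were also higher, with edgeR adjusted p of 0.0376, 0.0449, 0.0288 and 0.0404. Marcksl1 was lower (83.4 ± 2.1 CPM in the libraries labelled knockout and 101.3 ± 6 CPM in controls, log2 fold change −0.28, edgeR adjusted p = 0.0375, n = 3 each), and its value was −0.18 once sex was a term. The chemokine genes Ccl3 and Ccl4 had −0.38 and −0.54 (−0.12 with the sex term for Ccl4) and Tnf had 0.42, none past the test (edgeR adjusted p = 0.0511, 0.208 and 0.176).

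**Figure D4:**
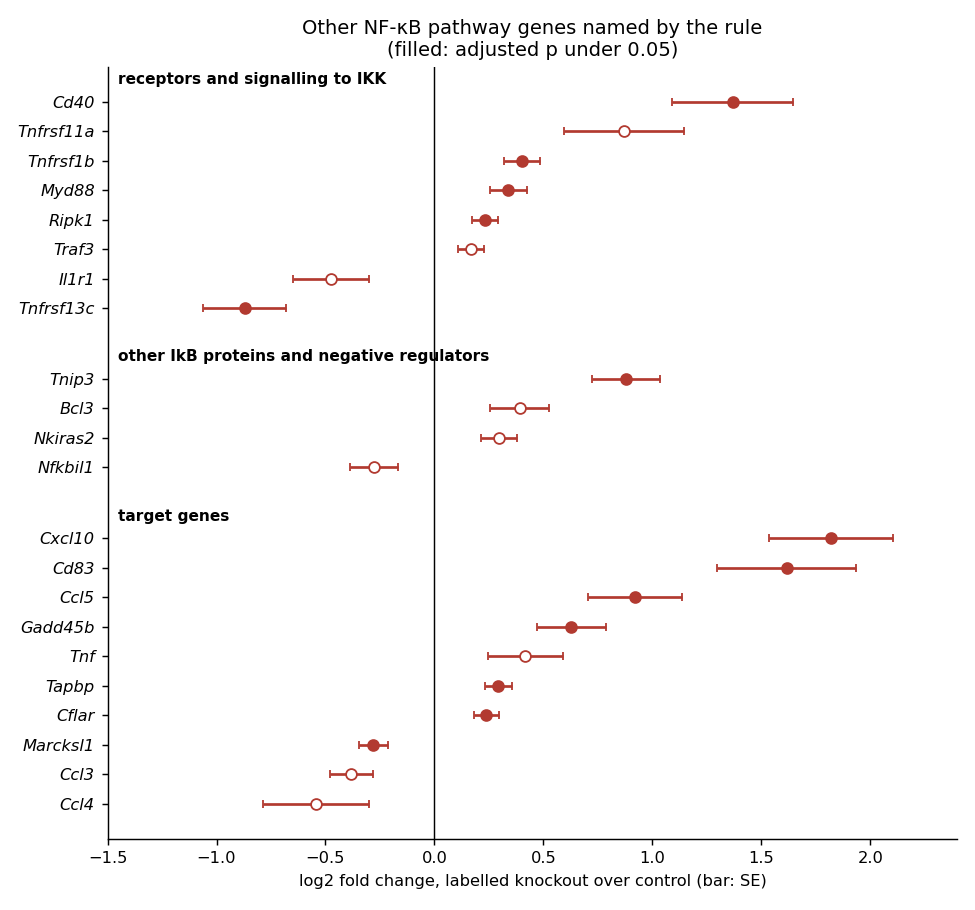
Log2 fold change, labelled knockout over control (horizontal axis, bar for the SE), of the pathway genes named by rule in each of the 3 lists, filled where the adjusted p is under 0.05. Cxcl10 at 1.82, Cd83 at 1.62 and Cd40 at 1.37 lie farthest right, and Tnfrsf13c at −0.87 farthest left.

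Over the 3 lists, 11 of the 70 genes tested were higher and 2 lower, against 3.85% and 4.58% of all genes tested. With the sex term edgeR called none of them, against 0.0512% higher and 0.263% lower of all genes tested. At an unadjusted p under 0.05 that fit had 8 higher and 2 lower, and the share over all genes was not computed for this. Leaving out 1 library changed the number higher to 6, 1 and 3 without knockout replicates 1, 2 and 3 and to 2, 7 and 4 without control replicates 1, 2 and 3. Over all genes, the number higher was 266, 119 and 208 without knockout replicates 1, 2 and 3. Without control replicates 1, 2 and 3 it was 189, 440 and 432. These fits tested 13771 to 13951 genes.

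**Figure D5:**
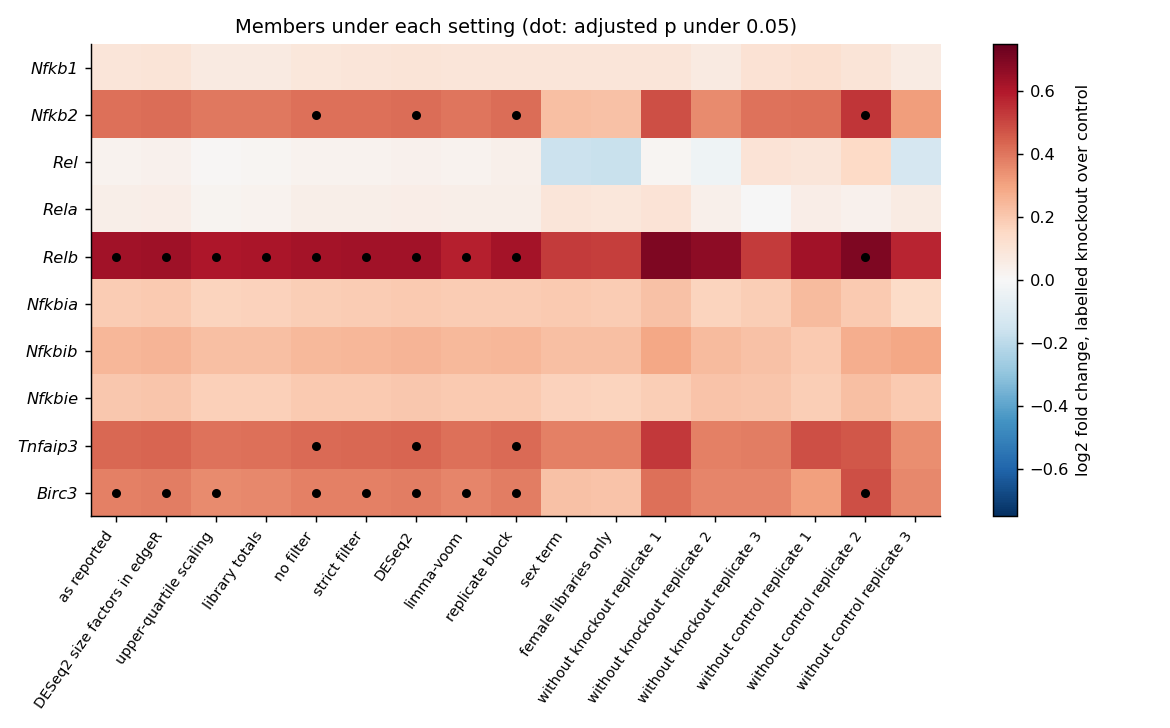
Log2 fold change of each member (rows, colour scale) in the reported fit and under each alternative (columns), with a dot where the adjusted p is under 0.05. Relb lies between 0.52 and 0.70 in every column, while dots are missing with the sex term, in the female libraries alone and in 5 of the 6 columns that leave out a library.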

How the data were processed

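The authors deposited raw read counts per gene symbol for 6 libraries, whole numbers that had not been normalized. The submitters' processing notes name STAR and the mm10 build. The version of STAR and the way reads were assigned to genes (tool, annotation and strand) stand as not given in the sources used here. Libraries were made from poly(A)-selected RNA with a directional kit, per the labels' protocols.

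The test was run in edgeR 4.0.16 (R 4.3.3): filterByExpr (minimum count 10, minimum total 15), which left 13679 of 24063 symbols, TMM scaling, and the quasi-likelihood F test on group alone. P-values were adjusted by Benjamini-Hochberg over all 13679 symbols, with a threshold of 0.05, and a sentence that gives an adjusted p without a tool means this fit. CPM was computed here from the deposited counts with the TMM-scaled library sizes. Confidence intervals are 95% and reflect the variation among libraries estimated by the model. No library repeated another, with chi-square statistics per degree of freedom of at least 10.2 for every pair.

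Positions and exon lengths come from GENCODE M21 (mm10). The members and lists were chosen with earlier results of these data known. Genes named are the 10 members, Arid2, every pathway gene past the threshold and, of each list, the 3 others with the smallest p; others are said to be added or are needed beside a member. Marker and pathway lists were matched by symbol. Alternatives were other scalings (DESeq2 size factors, upper quartile, library totals), no filter and a stricter one (3 or more libraries at 1 CPM or above), limma-voom (limma 3.58.1), DESeq2 1.42.0, the replicate number as a block, a sex term read from Xist and Y-linked genes, female libraries alone, each library left out, and an adjusted p under 0.1.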

Additional observations from a re-analysis of the deposited data

How the results depend on the processing

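The 2 members called higher became 4 with no filter, with DESeq2 and at an adjusted p under 0.1 (Relb, Birc3, Nfkb2 and Tnfaip3 each time), 1 with library totals, 0 with the sex term and 0 in the female libraries alone, and 0 to 3 when a library was left out. In the edgeR fits that called 0, 1 to 6 members were higher at an unadjusted p under 0.05. The share of all genes at that level was not computed for these fits, so the member counts have no background. No member was called lower in any setting or had a negative value at an unadjusted p under 0.05. Over all genes, 526 higher became 833 with DESeq2, 951 at an adjusted p under 0.1, 7 with the sex term, 10 in the female libraries alone and 119 to 440 when a library was left out. The 626 lower became 1051 at an adjusted p under 0.1, 36 with the sex term, 29 in the female libraries alone and 171 to 544 when a library was left out. Of the pathway genes, 11 higher and 2 lower became 0 and 0 with the sex term, 0 and 0 in the female libraries alone, and 1 to 7 and 0 to 3 when a library was left out. For same-numbered libraries 1, 2 and 3, the deviations from the group means had correlations of 0.293, −0.005 and 0.339. Knockout replicates 1 and 3 correlated best with the control of their own number. Knockout replicate 2 had correlations of 0.029, −0.005 and −0.024 with controls 1 to 3. These values do not settle whether the replicate numbers pair the libraries, and the labels do not state it. With the replicate block, 4 members, 1169 genes higher and 1003 lower were called. Rel turned to −0.16 with the sex term and −0.16 in the female libraries alone, and spanned −0.13 to 0.15 when a library was left out; Rela spanned −0.00100 to 0.10. No other member changed sign. The cause of these changes was not tested, and neither was the part of the smaller number of libraries in some fits. At these depths each member had at least 132 reads in every library; with counts of this size both counting error and the spread between libraries limit the comparison.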
